A study of Mus musculus with 6 samples.

Results

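Glutathione S-transferases are the enzymes that join glutathione to reactive compounds, among them aldehydes, quinones and epoxides of tobacco smoke, so that the products can be exported from the cell. 10 genes of this family were followed in smoke-exposed mouse lung: Gsta3 and Gsta4 of the alpha class, Gstm1, Gstm2, Gstm3 and Gstm5 of the mu class, Gstp1 of the pi class, Gsto1 of the omega class and Gstt1 and Gstt3 of the theta class. They were taken by gene symbol from a table of 57180 genes, and all 10 were found. Lung of FTO-overexpressing mice (genotype FTO_OE) exposed to cigarette smoke was set against lung of wild-type mice (WT) with the same exposure, with 3 RNA libraries in each. FTO is an RNA demethylase that acts on N6-methyladenosine. How the overexpression was made, the age and strain of the animals and whether each library came from its own animal are not given in the labels, so the errors below describe the spread between libraries, part of which may be technical. Lungs without smoke were not analysed here, and no value measures an effect of smoke.

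In many tissues the alpha and mu genes are under the control of NRF2, a transcription factor that is released from its inhibitor KEAP1 when electrophiles or oxidants enter the cell. NRF2 binds the antioxidant response element in the upstream sequence of its target genes. In mouse lung much of the capacity for glutathione conjugation lies in the airway epithelium, above all in club cells, which also hold the cytochromes that activate many inhaled compounds.

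No difference in any of the 10 genes between FTO-overexpressing and wild-type lungs passed the test. 9 of them had enough counts to be tested with edgeR's quasi-likelihood test, and 0 passed an adjusted p of 0.05, where 16 of 16989 genes tested (0.0942%) did so in either direction, 0.0765% higher and 0.0177% lower in FTO-overexpressing lungs. Without adjustment 0 of the 9 had a p under 0.05, against 9.44% of all genes, and DESeq2 and limma-voom also called 0, where they called 2.5% and 0.0294% of all genes. The values of the groups overlapped in all 10 genes. Over all genes tested, 7.96% had every FTO-overexpressing library above every wild-type library and 6.9% had every one below. The median log2 fold change of the 9 tested members was -0.041, beside 0.0069 over all genes tested. The 95% intervals of all 9 lay within a 2-fold change in either direction, and those of 5 (Gsta4, Gstm2, Gstp1, Gstt1 and Gstt3) within a 1.25-fold change.

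Fto itself, as the check of the genotype labels, was at 666.1, 650.1 and 740.8 CPM (counts per 1000000, with TMM scaling) in FTO-overexpressing lungs, against 66.2, 69.9 and 68.6 CPM in wild-type lungs, a 10.05-fold difference (95% interval 8.66 to 11.7; edgeR adjusted p = 1.45e-05). Markers of lung were abundant in every library: the club cell secretoglobin Scgb1a1 lay between 18344 and 24384 CPM in FTO-overexpressing and between 23818 and 30343 CPM in wild-type lungs, and the surfactant protein gene Sftpc was at 11476 CPM or more throughout. Ager, of alveolar type 1 cells, was at 1170 CPM or more in all libraries. The libraries held 16731850 to 21444907 counts in the FTO-overexpressing group and 18044267 to 19389115 in the wild-type group.

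**Figure D1:**
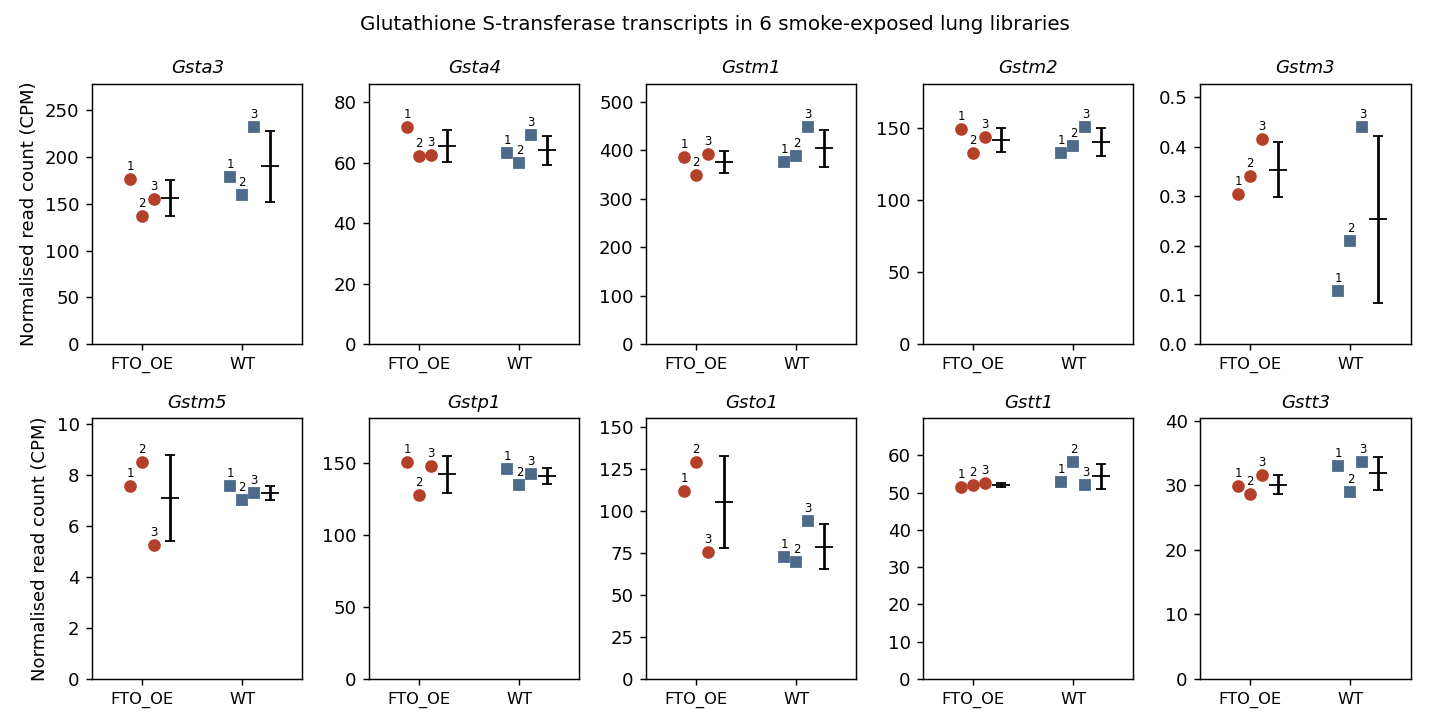
Normalised read counts (CPM, vertical axes from 0) of the 10 glutathione S-transferase genes in each library, FTO-overexpressing (FTO_OE, circles) left of wild-type (WT, squares). Small numbers are replicate numbers, and bars to the right of the points are the mean and SD of 3 libraries. The groups overlap in every panel, also in that of Gsto1, with means of 105.6 CPM in FTO_OE and 78.7 CPM in WT.

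The order of the genes by level was the same in both groups. Levels of different genes are given here per kilobase of the principal transcript in GENCODE M21, since longer transcripts give more reads. Gstm1 was the most abundant at 291.3 ± 17.8 CPM per kilobase in FTO-overexpressing lungs, against 313 ± 29.8 in wild-type lungs (SD, n = 3 each). Gstp1 followed at 173 ± 15.3 against 172 ± 6.64, and Gstm2 at 133 ± 7.94 against 132 ± 8.82 CPM per kilobase. Gsta3 stood at 107 ± 13.4 in FTO-overexpressing and 130.4 ± 25.9 CPM per kilobase in wild-type lungs. In wild-type lungs its range of 109 to 159 took in that of Gstm2, so the order of those neighbours does not exceed their spread. Gsto1, Gsta4 and Gstt1 came next, and the ranges of Gsto1 and Gsta4 overlapped in both groups. Gstt3 (16.0 against 16.9 CPM per kilobase) and Gstm5 (7.53 against 7.74) were lower, and Gstm3 was lowest at 0.27 against 0.19.

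Sequence similarity within the family bears on how reads were assigned. Gstp1 has a neighbour on chromosome 19, Gstp2, whose coding sequence of 630 bases differs from it at 12 positions, an identity of 98.1%. The first 120 coding bases hold 6 of these differences and are shown as an example of how alike the genes are; capitals mark the bases that differ (GENCODE M21 transcripts).
Gstp1: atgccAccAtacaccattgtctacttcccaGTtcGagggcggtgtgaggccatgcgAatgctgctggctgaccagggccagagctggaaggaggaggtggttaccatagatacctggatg
Gstp2: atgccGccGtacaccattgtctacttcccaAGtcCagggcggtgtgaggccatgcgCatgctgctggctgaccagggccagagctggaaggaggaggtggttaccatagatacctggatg
The last 300 coding bases are identical. 52.8% of all windows of 100 bases in the Gstp1 transcript also occur in Gstp2 or in the pseudogene Gstp-ps. The share found in other genes was 13.8% for Gstm3, 7.73% for Gstm1, 0.622% for Gstm2 and 23.9% for Gstt3 (all in the predicted gene model Gm20441). It was 0% for Gsta3, Gsta4, Gstm5, Gsto1 and Gstt1. In windows of 50 bases the shares were 62.3% for Gstp1, 28.8% for Gstm3, 26.0% for Gstt3, 23.1% for Gstm1 and 9.36% for Gstm2. Gstp1 was the only member with a fractional count in all 6 libraries, and in each library the counts of Gstp1, Gstp2 and Gstp-ps added up to a whole number within 0.02, for example 2966.9 and 237.1 to 3204 in FTO-overexpressing replicate 1.

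NRF2's binding motif was looked for in the upstream sequences of the members, because other NRF2 targets are compared below. RefSeq promoter windows (GRCm38.p6) were at hand for 9 of the 10 genes, Gsta4 being the exception, and the 250 bases before each transcription start were searched on both strands for the core of the antioxidant response element, TGACNNNGC. It was present in 2 of the 9 genes, Gsta3 and Gstm5, and in 10.2% of all 32851 windows of the same length. Both matches are shown in capitals, within the 250 bases of the plus strand at chr1:21240335-21240584 and chr3:107895604-107895853.
Gsta3: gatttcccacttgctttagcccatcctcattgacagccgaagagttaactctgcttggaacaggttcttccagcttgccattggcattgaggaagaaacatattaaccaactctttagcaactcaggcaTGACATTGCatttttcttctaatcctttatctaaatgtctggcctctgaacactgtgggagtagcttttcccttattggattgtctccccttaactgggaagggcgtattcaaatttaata
Gstm5: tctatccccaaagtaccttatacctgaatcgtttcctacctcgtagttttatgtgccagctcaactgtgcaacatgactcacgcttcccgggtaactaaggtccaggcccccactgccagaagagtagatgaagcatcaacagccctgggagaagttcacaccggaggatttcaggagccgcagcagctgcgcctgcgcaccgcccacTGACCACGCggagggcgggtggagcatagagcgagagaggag
The match begins 121 bases before the start of Gsta3 and 42 bases before that of Gstm5. The core of the xenobiotic response element bound by the aryl hydrocarbon receptor, GCGTG, was found in Gstm1, Gstm5 and Gstp1 and in 28.2% of all windows. In Gstm5 its 2 copies lie on the opposite strand, and the nearer to the start overlaps the end of the antioxidant response element core. A match of letters is a description and does not show that a factor binds there.

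Of the alpha genes, Gsta3 had the lowest fold change of the members. It encodes an alpha-class enzyme known in the mouse for conjugating the epoxide of aflatoxin B1. Its level was 176, 137 and 155 CPM in FTO-overexpressing lungs and 179, 159 and 232.0 CPM in wild-type lungs. The highest value was wild-type replicate 3 and the lowest FTO-overexpressing replicate 2, and the other libraries overlapped. The ratio was 0.822 (95% interval 0.641 to 1.05; edgeR adjusted p = 0.655). Gsta4, whose product clears 4-hydroxynonenal, an aldehyde of lipid peroxidation, was at 71.8, 62.2 and 62.7 CPM in FTO-overexpressing and 63.3, 59.8 and 69.3 CPM in wild-type lungs. The groups covered nearly the same range, and the ratio was 1.02 (95% interval 0.881 to 1.19; edgeR adjusted p = 0.960).

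The mu genes sit side by side in a cluster on chromosome 3, with Gstm3, Gstm2 and Gstm1 as direct neighbours. Gstm1, the main mu-class enzyme of many mouse tissues, was at 385.5, 349.2 and 391.8 CPM in FTO-overexpressing lungs and at 375.6, 388.1 and 447.5 CPM in wild-type lungs, with a fold of 0.930 (interval, at 95%, of 0.794 to 1.09; edgeR adjusted p = 0.821). Gstm2 had 149, 133 and 144 CPM in FTO-overexpressing and 132, 138 and 151 CPM in wild-type lungs. The groups coincided, the fold being 1.01 (95% interval 0.882 to 1.16). Gstm1 and Gstm2 were highest of all in wild-type replicate 3 and lowest or near lowest in FTO-overexpressing replicate 2.

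Gstm5 is a low-level mu gene. It had 7.57, 8.53 and 5.26 CPM in FTO-overexpressing lungs, a wider spread than the 7.59, 7.04 and 7.32 CPM of wild-type lungs, and the fold was 0.972 (95% interval 0.701 to 1.35; edgeR adjusted p = 0.976). Gstm3 had 6, 6 and 9 counts in FTO-overexpressing libraries and 2, 4 and 8 counts in wild-type libraries, too few for the filter on low counts. In a fit without that filter its fold change was 1.40 with a 95% interval of 0.513 to 3.82, so at this depth a 2-fold difference in Gstm3 was not detectable.

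Gstp1, the pi-class enzyme that also binds and restrains the stress kinase JNK, had similar levels in both groups. It had 151, 128 and 148 CPM in FTO-overexpressing and 145, 135 and 142 CPM in wild-type lungs. The ratio was 1.01 (95% interval 0.875 to 1.16; edgeR adjusted p = 0.985), and with the reads of Gstp1, Gstp2 and Gstp-ps added together it was 1.02 (95% interval 0.884 to 1.18; edgeR adjusted p = 0.960). Gstp2 taken alone had a ratio of 1.27, with an interval of 0.795 to 2.02.

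Gsto1 had the highest fold change of the tested members. Omega-class enzymes use a cysteine in place of the usual tyrosine or serine, reduce dehydroascorbate and remove glutathione from proteins. Gsto1 was at 112, 129 and 75.5 CPM in FTO-overexpressing lungs and at 72.9, 69.4 and 93.9 CPM in wild-type lungs. FTO-overexpressing replicates 1 and 2 lay above all wild-type libraries, whereas replicate 3 lay inside the wild-type range. The ratio was 1.34 (95% interval 0.966 to 1.86; edgeR adjusted p = 0.598). Without FTO-overexpressing replicate 2 the log2 fold change was 0.25, and without replicate 3 it was 0.61, against 0.42 with all libraries. None of these fits passed the threshold.

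The theta genes Gstt3 and Gstt1 are neighbours on chromosome 10, and their enzymes act on small halogenated compounds. Gstt1 had 51.5, 52.0 and 52.7 CPM in FTO-overexpressing lungs, a coefficient of variation of 1.14%, and 52.8, 58.3 and 52.0 CPM in wild-type lungs. The ratio was 0.957 (95% interval 0.849 to 1.08; edgeR adjusted p = 0.863). Gstt3 had 29.9, 28.6 and 31.5 CPM in FTO-overexpressing and 33.0, 28.9 and 33.6 CPM in wild-type lungs, the fold being 0.943 (95% interval 0.814 to 1.09). In both genes the groups overlapped.

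**Figure D2:**
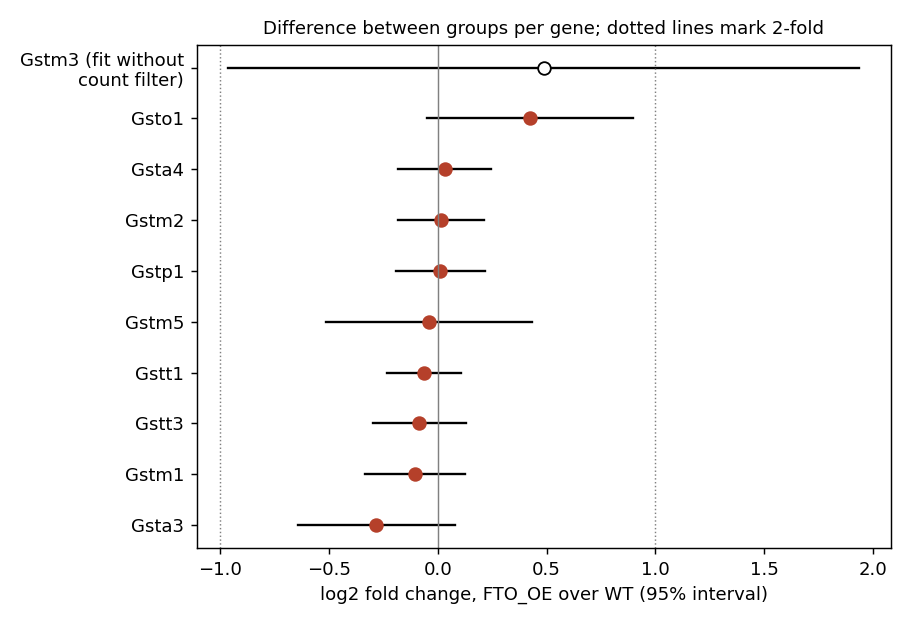
Log2 fold change of each gene in FTO-overexpressing over wild-type lungs (horizontal axis) with its 95% interval, ordered by value; dotted lines mark 2-fold. Filled points come from the fit with the count filter and the open point is Gstm3 from the fit without it. All 9 filled intervals include 0 and stay inside the dotted lines, from Gsta3 at -0.28 to Gsto1 at 0.42.

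Gsta3 and Gsto1, the members with the widest spread among those above 10 CPM, followed different airway markers from library to library. Gsta3 put the 6 libraries in the same order as Scgb1a1 in 15 of 15 pairs of libraries. The order was shared in 14 of 15 pairs with Cyp2f2, a club cell cytochrome, and in 14 of 15 with Cldn10, a club cell claudin. With the other 8 markers of the list it was shared in 4 to 10 of 15 pairs, the lowest with Muc5b and the highest with Cbr2. Scgb1a1 was at 24384, 18344 and 21613 CPM in FTO-overexpressing lungs and at 25915, 23818 and 30343 CPM in wild-type lungs. Gsto1 shared the order of Scgb1a1 in 6 of 15 pairs. It shared the order in 14 of 15 pairs with each of Scgb3a2, Scgb3a1, Lypd2 and Reg3g, and in 13 of 15 with the mucin gene Muc5b and with Bpifa1, all of them on the list of secretory airway markers. It was shared in 12 of 15 pairs with Gabrp, 7 with Cyp2f2 and 5 each with Cldn10 and Cbr2, and in 6 of 15 with the sum of the whole list. Scgb3a2 was at 1020, 855 and 620 CPM in FTO-overexpressing and at 546, 529 and 693 CPM in wild-type lungs. Gsta3 in turn shared the order of Scgb3a2 in 7 of 15 pairs. These markers were picked out of the 11 secretory markers after their values were seen, the 6 libraries are few, and no test was made. There were 160 combinations of a member and the sum of a marker list. 1 of them, Gsta3 and the airway list, reached 15 of 15 pairs, and Gstp1 shared 0 of 15 with the smooth muscle sum. Gsta3 also shared 13 of 15 with the sums of alveolar type 1 and alveolar macrophage markers. Gstt3 shared 13 of 15 with the airway sum. With the sum of alveolar type 2 markers, Gstt1 shared 13 of 15 and Gsto1 shared 1 of 15. In whole lung RNA a smaller number of cells of a type and less RNA per cell cannot be told apart.

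As a list, the 11 club and airway secretory markers had 0 members past the edgeR threshold, 3 at an unadjusted p under 0.05, 0 with DESeq2 or limma-voom, 1 without the filter on low counts, and none at 0 counts. Of all genes tested, 9.44% had an unadjusted p under 0.05, and edgeR called 0.0942%, DESeq2 2.5% and limma-voom 0.0294%. Without the filter on low counts 287 of 29537 passed. Fold changes were positive in 7 of the 11 markers and negative in 4, with a median log2 fold change of 0.496. The summed level of the 11 markers was 23999 to 30558 CPM in FTO-overexpressing and 28753 to 36038 CPM in wild-type lungs. Scgb1a1 made up 76.4% to 81.3% of that sum in FTO-overexpressing and 82.8% to 84.2% in wild-type lungs. Heart and striated muscle transcripts also differed between libraries: the sum of 8 markers was 197, 1290.1 and 326 CPM in FTO-overexpressing lungs and 142, 70.0 and 603 CPM in wild-type lungs, with none at 0 and 0 past the threshold (2 at an unadjusted p under 0.05, 1 past the threshold without the filter on low counts). Gsto1 shared the order of that sum in 13 of 15 pairs. The libraries highest in muscle transcripts were FTO-overexpressing replicate 2 and wild-type replicate 3. Without both, the ratio of Gsto1 was 1.32 (95% interval 0.953 to 1.82) and that of Gsta3 was 0.981 (95% interval 0.806 to 1.19), with edgeR adjusted p of 0.792 and 0.988. The part of airway or muscle content in the member values was not tested.

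**Figure D3:**
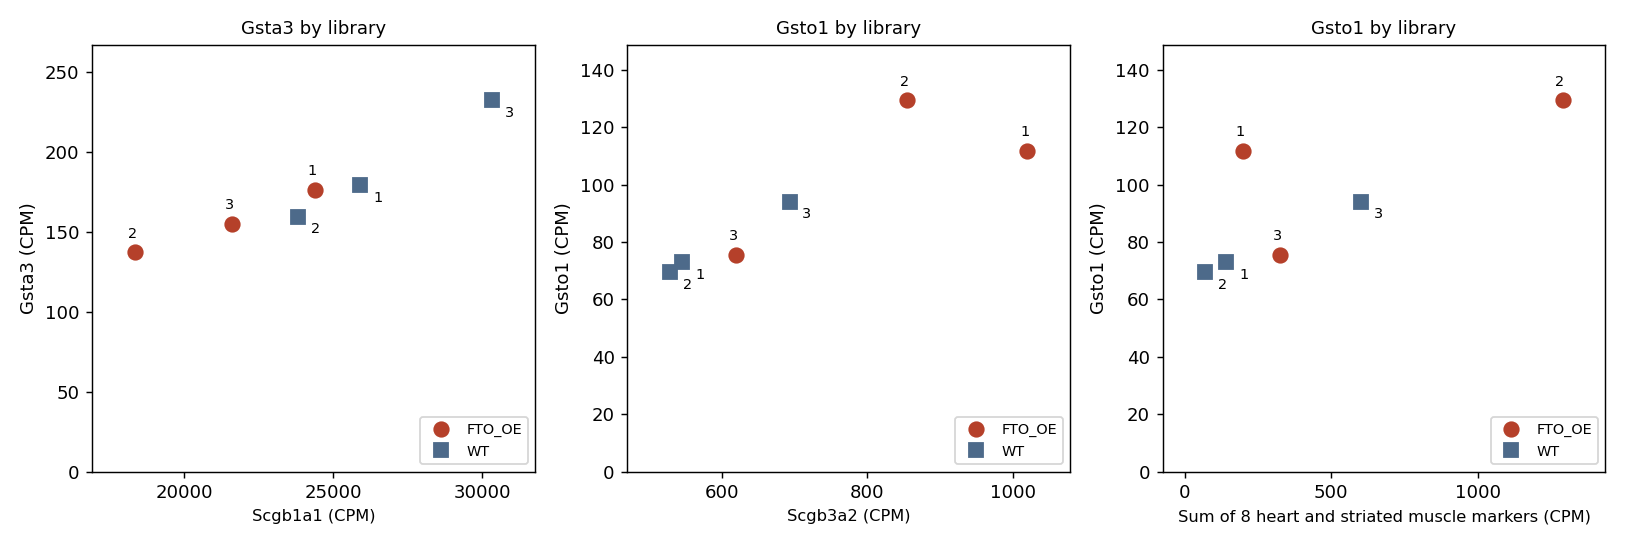
Level of a glutathione S-transferase gene (CPM, vertical axes from 0) against a marker level (CPM, horizontal axes) in each of 6 libraries, FTO_OE as circles and WT as squares, with replicate numbers beside the points. Gsta3 orders the libraries as Scgb1a1 does (15 of 15 pairs), and Gsto1 nearly as Scgb3a2 does (14 of 15 pairs) and as the summed heart and striated muscle markers do (13 of 15 pairs).

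The other glutathione transferases of the table gave no call either. Of 17 found, 15 were tested, and 0 passed the edgeR threshold, 0 had an unadjusted p under 0.05, and 0 were called by DESeq2 or limma-voom. Their median log2 fold change was -0.054. The smallest p belonged to Gstz1, the zeta-class enzyme of tyrosine breakdown, at a ratio of 0.881. Gstk1, the mitochondrial and peroxisomal kappa-class gene, had a ratio of 0.855, Gstcd, a gene with a transferase-like domain, one of 1.18, and Gsto2, the neighbour of Gsto1, one of 0.668. The edgeR adjusted p of these 4 lay between 0.576 and 0.696. In Gstcd every FTO-overexpressing library (11.2, 10.3 and 10.9 CPM) stood above every wild-type library (9.86, 9.14 and 8.58 CPM). It was the only 1 of the 15 to do so, near the share of 7.96% over all genes tested. Of all genes, 9.44% had an unadjusted p under 0.05, and edgeR called 0.0942%, DESeq2 2.5% and limma-voom 0.0294%. Gsta1 and Gstt4 had too few counts to be tested.

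Genes around the conjugation step were followed by role, as counts and medians, to be read beside the shares of all genes. Of all genes, edgeR called 0.0942%, DESeq2 called 2.5%, and 9.44% had an unadjusted p under 0.05. In 7.96% every FTO-overexpressing library stood above every wild-type one, and in 6.9% every one stood below. Among 12 genes of glutathione supply, 0 passed the edgeR threshold and 0 had an unadjusted p under 0.05, with a median log2 fold change of 0.066. Gss, which completes glutathione synthesis, was at 30.0, 30.4 and 30.7 CPM in FTO-overexpressing and at 35.7, 32.6 and 34.6 CPM in wild-type lungs, without overlap, at a ratio of 0.886 (edgeR adjusted p = 0.535). Slc3a2, a subunit of the cystine transporter, had a ratio of 0.840 (edgeR adjusted p = 0.615).

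Among 14 tested genes that export or trim glutathione conjugates, 0 passed with edgeR, 3 had an unadjusted p under 0.05, and DESeq2 called 1, Abcc3. This gene encodes an efflux pump of the multidrug resistance family. It was at 36.5, 38.7 and 39.5 CPM in FTO-overexpressing and at 54.8, 46.5 and 56.8 CPM in wild-type lungs, with a fold of 0.725 (interval, at 95%, of 0.623 to 0.845; edgeR adjusted p = 0.140, DESeq2 adjusted p = 0.00815). Lap3, a cytosolic aminopeptidase gene, had a ratio of 1.24 (edgeR adjusted p = 0.438). The median of the list was -0.090.

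Of 7 genes on the list of glutathione peroxidases, which includes Prdx6, 0 passed with edgeR, 1 had an unadjusted p under 0.05 and DESeq2 called 1. Both were Gpx3, the secreted glutathione peroxidase, which had 530.3, 467.0 and 473.6 CPM in FTO-overexpressing lungs and 615.8, 709.8 and 726.0 CPM in wild-type lungs. Every FTO-overexpressing library was below every wild-type one, the fold being 0.717 (95% interval 0.607 to 0.846; edgeR adjusted p = 0.155, limma-voom adjusted p = 0.186, DESeq2 adjusted p = 0.000388). Prdx6, a peroxiredoxin that is reactivated with the help of the pi-class transferase, was at 828, 678 and 805 CPM in FTO-overexpressing and at 886, 876 and 1033 CPM in wild-type lungs, with a fold of 0.827 (interval, at 95%, of 0.682 to 1.00; edgeR adjusted p = 0.535). The groups did not overlap in Prdx6 or in Gpx8 either, although they did in Gstp1. With Gpx3, 3 of the 7 lay below without overlap, against 6.9% of all genes. The median of the list was -0.082.

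Of 18 further NRF2 target genes, 0 passed with edgeR, DESeq2 or limma-voom and 1 had an unadjusted p under 0.05. 13 of the 18 had positive and 5 negative fold changes, and the median log2 fold change was 0.056, beside 0.0069 over all genes tested. Osgin1, an oxidative stress-induced growth inhibitor, had a ratio of 1.17, and Cbr3, a carbonyl reductase, one of 1.20 (edgeR adjusted p of 0.529 and 0.621). Nfe2l2, the gene of NRF2, was at 201, 176 and 182 CPM in FTO-overexpressing and at 202, 208 and 203 CPM in wild-type lungs, with a ratio of 0.913 (edgeR adjusted p = 0.692). Keap1 had 59.3, 55.8 and 60.4 CPM in FTO-overexpressing lungs and 54.4, 52.1 and 54.7 CPM in wild-type lungs, with a ratio of 1.09 (edgeR adjusted p = 0.668). The groups of both genes stood just apart.

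Of 12 tested regulators of these genes, 0 passed with any of the 3 tools, 2 had an unadjusted p under 0.05, and the median was -0.038. Ahr, the gene of the aryl hydrocarbon receptor, was at 128, 124 and 141 CPM in FTO-overexpressing and at 106, 107 and 115 CPM in wild-type lungs, a ratio of 1.20 (edgeR adjusted p = 0.339). Mafk, a small MAF partner of NRF2, had a ratio of 0.881 (edgeR adjusted p = 0.507).

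Among 10 tested genes of other conjugation reactions, 0 passed with edgeR, 1 had an unadjusted p under 0.05, and the median was 0.039. Sult1a1, a phenol sulfotransferase, had a fold of 0.696 (95% interval 0.556 to 0.870; edgeR adjusted p = 0.244) and was the 1 gene of the list that DESeq2 called (adjusted p = 0.0468). Sult1d1, another sulfotransferase, was at 36.5, 39.9 and 21.9 CPM in FTO-overexpressing lungs and at 8.29, 12.2 and 28.9 CPM in wild-type lungs. Its groups overlapped, its ratio was 1.99 (95% interval 0.976 to 4.04; edgeR adjusted p = 0.553), and it shared the order of the libraries with Gsto1 in 14 of 15 pairs.

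Alveolar markers were measured beside these genes, since Gpx3, Prdx6, Abcc3 and Sult1a1 were lower in every FTO-overexpressing library. Over all genes tested, 6.9% lay below without overlap, 9.44% had an unadjusted p under 0.05, and edgeR called 0.0942% and DESeq2 2.5%. All 10 alveolar type 2 markers had negative fold changes, and in 7 every FTO-overexpressing library lay below every wild-type one. Of the 10, 0 passed the edgeR threshold, 5 had an unadjusted p under 0.05 and 4 were called by DESeq2. Their sum was 18603 to 22453 CPM in FTO-overexpressing and 21637 to 24750 CPM in wild-type lungs. All 9 alveolar type 1 markers also had negative fold changes, 5 of them without overlap, with 0 called by edgeR or DESeq2 and 2 at an unadjusted p under 0.05. Their sum was 5239 to 6242 CPM in FTO-overexpressing and 6450 to 7091 CPM in wild-type lungs. No marker of either list was at 0. All 9 endothelial markers were also negative, 2 without overlap, with 0 called by edgeR, 1 by DESeq2 and 3 at an unadjusted p under 0.05. Their sum was 3606 to 3965 CPM in FTO-overexpressing and 4101 to 4291 CPM in wild-type lungs. Fold changes were negative in 6 of 6 tested mesothelial, 8 of 9 alveolar macrophage and 7 of 9 fibroblast markers. They were positive in 10 of 13 tested ciliated, 5 of 7 smooth muscle and 5 of 5 erythroid markers. The same held for 8 of 8 heart and striated muscle, 5 of 5 tested adipocyte and 10 of 10 cytotoxic cell markers. The median log2 fold change over all genes tested was 0.0069. Of the 10 cytotoxic cell markers edgeR called 4 and DESeq2 8, and limma-voom, which called 0.0294% of all genes, called 1. The part of these cell types in the gene values was not tested.

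**Figure D4:**
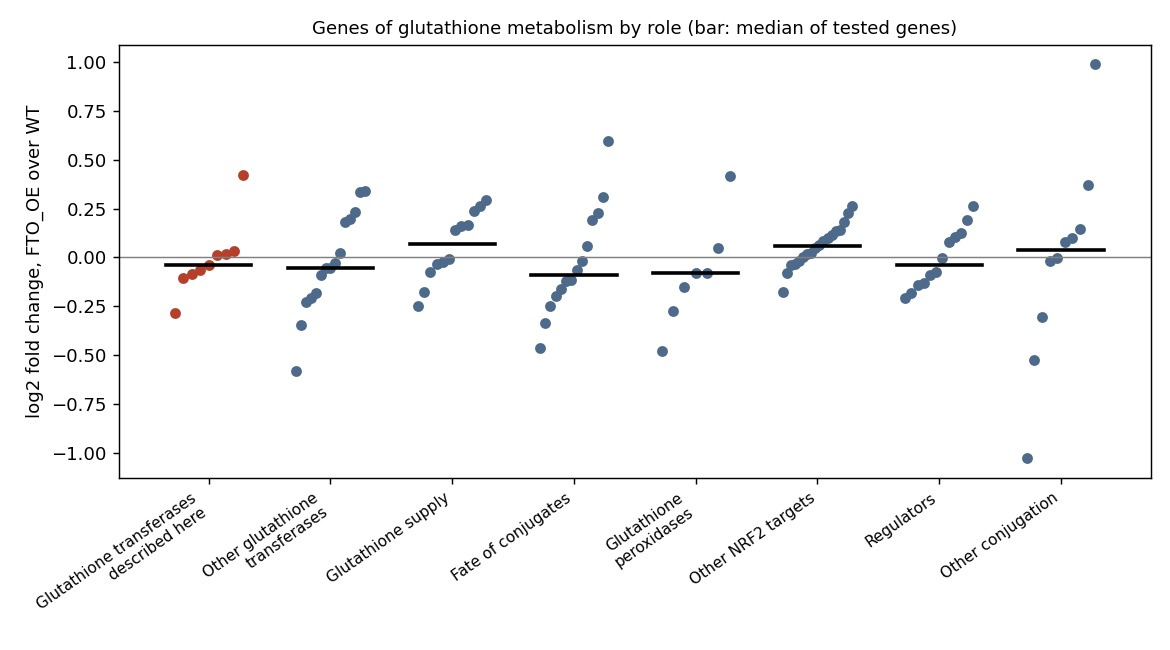
Log2 fold change in FTO-overexpressing over wild-type lungs (vertical axis) of every tested gene in 8 role groups, glutathione transferases described here at the left in red; black bars are medians. The medians lie between -0.090 and 0.066, and the group at the left runs from -0.28 to 0.42.

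T cell markers were higher in FTO-overexpressing lungs. The sum of 11 T cell markers, with none at 0, was 278 to 587 CPM in FTO-overexpressing and 80.4 to 110.0 CPM in wild-type lungs, and 3 of the 11 rose past the edgeR threshold (0 with limma-voom, 11 with DESeq2), against 0.0942%, 0.0294% and 2.5% of all genes. The edgeR count was 5 without FTO-overexpressing replicate 1, 1 without its replicate 3, and 0 without its replicate 2 or any single wild-type library. Over the same libraries the summed level of the 10 glutathione transferases was 1028 to 1135 CPM in FTO-overexpressing and 1044 to 1229 CPM in wild-type lungs, so that the ranges overlapped.

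Among the genes whose levels most resembled the mean of the tested members over the 6 libraries were Ildr1, Myzap, Dync2li1 and Yju2b. Likeness was the root-mean-square difference of log2 CPM, each gene centred on its own mean, and it ran from 0.027 to 0.031 for these 4. Among the members the difference from that mean was smallest for Gsta4 (0.043) and largest for Gsto1 (0.30), followed by Gstm5 and Gsta3 (0.19 each).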

How the data were processed

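Polyadenylated RNA of 6 lung samples was sequenced from libraries of a stranded Illumina kit after TRIzol extraction, per the labels' protocols. The submitters' processing notes name fastp, HISAT2 and StringTie, without versions. The sources used here do not name the genome build, annotation or counting program. The authors deposited expected counts per gene, not scaled to library size, with 9.66% to 10.3% of values per library not whole. Of 57180 rows, 525 carry an identifier without a symbol (0.119% to 0.143% of counts) and were kept under it. Reads of near-identical or overlapping genes can be divided or shared.

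Counts were rounded and fitted in R 4.3.3 with edgeR 4.0.16 (filterByExpr, minimum count 10, TMM, quasi-likelihood test, group as the only term), with Benjamini-Hochberg adjustment over 16989 genes and a threshold of 0.05. Intervals and SE derive from the fold change and its F statistic. Levels are TMM-scaled CPM. On simulated counts for 16815 genes with the same library sizes, the fit recovered 77% of the 100 genes set to a 2-fold change and 100% of the 100 set to a 4-fold change, and the 95% intervals held the true value for 95.1% of genes. No library was treated as a duplicate, since chi-square per degree of freedom between libraries of a group was 18.8 to 32.5. Between groups it ran from 14.1 to 31.0. The lowest values were those of replicate 1 of both groups (14.1) and of FTO-overexpressing replicate 2 with wild-type replicate 3 (18.0), below every pair within a group. The labels give no batch.

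The members, the 23 further gene lists and the rule for named genes were chosen with earlier results of these data known. Of 247 list entries 246 were found. Named were all members, the genes with the smallest p of each role list (4 other transferases, 2 of each of 6 lists), Nfe2l2, Keap1, Fto, 3 lung markers and the 5 genes most like the members, 1 of which is not reported here; airway markers were picked after their values were seen. Lists are described by counts and medians. Of the marker lists, those of airway secretory cells, muscle, T cells, alveolar type 1 and 2 cells and endothelium are reported. Some others are given only by the signs of their fold changes or the order of their sums, and cytotoxic cells by signs and calls. Transcript lengths and shared windows come from GENCODE M21 by gene identifier, and promoters from RefSeq. Alternatives were RLE, upper-quartile and library-total scaling, other count filters, haemoglobin, immunoglobulin and mitochondrial genes left out, a replicate block, limma-voom (limma 3.58.1), DESeq2 1.42.0, an adjusted p of 0.1 and each library left out. 2 were added after the data were seen: both libraries rich in muscle transcripts left out, and the Gstp1 copies summed.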

Additional observations from a re-analysis of the deposited data

How the results depend on the processing

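The count of glutathione transferases past the threshold was 0 of the members under each of the 18 alternatives, and the median log2 fold change of the members ran from -0.062 with limma-voom to 0.026 without both libraries rich in muscle transcripts. Gsta3, Gsto1, Gstt1 and Gstt3 kept their sign in 17 of 17 fits. Gsta4, Gstm1, Gstm2, Gstm5 and Gstp1 changed sign in 1 to 3 of the fits, and the smallest edgeR adjusted p of any member was 0.432, for Gsto1 without FTO-overexpressing replicate 3. The count over all genes was less stable. Against 16 genes in the fit as reported, 287 passed with no filter on low counts, 31 when genes of haemoglobin, immunoglobulins and mitochondria were dropped, 5 with limma-voom, 424 with DESeq2, 70 at an adjusted p of 0.1, 1 without both libraries rich in muscle transcripts, and 1 to 49 with a single library left out: 49 without FTO-overexpressing replicate 1, 6 without its replicate 3 and 1 each without FTO-overexpressing replicate 2, wild-type replicate 2 or wild-type replicate 3. The cause was not tested. With the replicate number as a block 2 genes passed. The labels do not say that replicate numbers pair the samples. Deviations from the group means correlated at 0.108, -0.308 and -0.308 between libraries of the same number, and none correlated best with its own number. With 3 libraries in each group, these correlations cannot exclude a pairing or a shared batch. For named genes and lists, 3 single-gene calls were gained, each with DESeq2 (Abcc3, Gpx3 and Sult1a1), 27 of 390 list counts and 17 of 390 list medians moved, and 523 of 526 single-gene values kept their call. Depth limits Gstm3, at 21 counts over the FTO-overexpressing and 14 over the wild-type libraries.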
